A study of Homo sapiens with 6 samples.

Results

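PLEKHA7, the cadherins CDH1, CDH2, CDH3 and CDH11, and the catenins CTNNA1, CTNNB1, CTNND1 and JUP were followed in clones of MDA-MB-231, an established triple-negative human breast cancer line. The members were the probe sets whose platform gene symbol is 1 of these 9 names. They were 8 of 19775 measured genes, with 20 of the 54613 probe sets that are not controls. CTNND1 had no probe set of its own, because its 4 probe sets are also annotated to the readthrough transcript TMX2-CTNND1. PLEKHA7 was chosen for its increase in the knockdown clones, so its values are a description with no test. The cadherins and catenins were chosen by name, with earlier results of these data known.

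The study compared 3 single clones stably carrying a hairpin against WASF3 with 3 control clones, 1 array for each clone. Knockdown clones came from infection with the retroviral vector pSM2 carrying either of 2 hairpins against WASF3, and control clones from the empty vector or a hairpin against GFP. All clones were puromycin resistant (1.0 μg/ml for 2 weeks) and labelled passage 4. The labels do not tie a clone to its hairpin or control vector, so hairpin and clone cannot be told apart. Each array is 1 clone, so p-values measure the spread between clones of a single parental line. WASF3, which encodes a WAVE protein that activates branched actin growth, read 5.40, 5.80 and 4.52 (log2 RMA signal) in knockdown clones 1, 2 and 3 and 6.42 to 6.77 in control clones. The groups did not overlap. Knockdown clones 1 and 3 lay between the lowest and highest mean (3.23 and 5.74) of leukocyte genes, which a breast line lacks, so only a bound on their WASF3 level is known. The difference missed the threshold over all probe sets (limma adjusted p = 0.102). Over the alternatives run it was 0.0175, without knockdown clone 3, to 0.420, without control clone 1, and it passed in the first of these alone, where 6.19% of all genes were called.

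Adherens junctions hold neighbouring epithelial cells together. The extracellular parts of cadherins bind between cells. Their cytoplasmic tails bind p120 catenin (CTNND1) near the membrane and beta-catenin (CTNNB1) or plakoglobin (JUP) further along, and alpha-catenin (CTNNA1) links that complex to actin. PLEKHA7 binds p120 catenin and, through other partners, tethers the minus ends of microtubules to the junction. MDA-MB-231 cells are known as mesenchymal-like cells with little E-cadherin.

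PLEKHA7 was higher in all 3 knockdown clones on both of its probe sets. The brighter probe set (242417_at) read 9.36, 9.24 and 9.12 in knockdown clones 1, 2 and 3, and 7.78, 7.60 and 7.75 in control clones 1, 2 and 3. The other (228450_at) read 9.10, 8.82 and 8.71 against 7.15, 7.19 and 7.18. The groups did not overlap, and the lowest knockdown clone stood above the highest control clone by 1.34 and 1.52 on the log2 scale. The knockdown minus control change was 1.53 (SE 0.10, 2.88-fold) on the first probe set and 1.71 (SE 0.12, 3.27-fold) on the second. Spread within groups was small next to this gap. The first probe set had means of 9.24 ± 0.12 (knockdown) and 7.71 ± 0.10 (control; SD, n = 3). The second had 8.88 ± 0.20 against 7.17 ± 0.02. On both probe sets clone 1 was the highest of the knockdown clones and clone 3 the lowest.

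**Figure D1:**
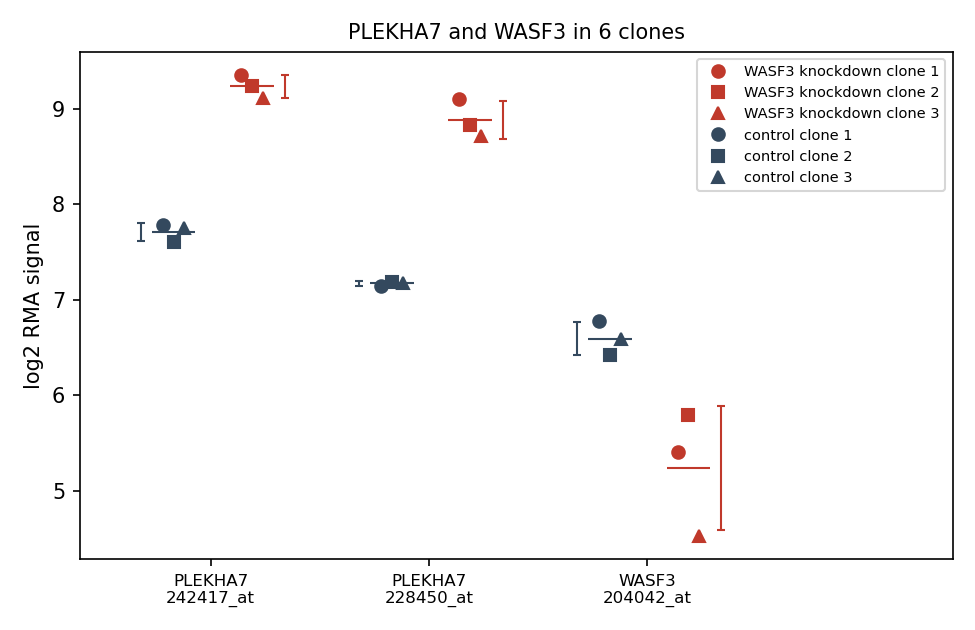
The plot gives the log2 RMA signal (vertical axis) of both PLEKHA7 probe sets and the WASF3 probe set in 3 control clones (dark) and 3 knockdown clones (red), with group means as lines and SD as bars. On 242417_at the knockdown clones lie between 9.12 and 9.36 and the control clones between 7.60 and 7.78, and WASF3 is lower in each knockdown clone.

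With each of 19775 genes represented by its brightest probe set, PLEKHA7 had the sixth largest increase, on the values that chose it. A sign of RNA quality differed between the groups too. The 3′ minus 5′ difference of the GAPDH and ACTB control probe sets was 1.62 to 2.11 in knockdown and 1.13 to 1.47 in control clones. Adjusted for this index, the change of PLEKHA7 was 1.47 (SE 0.18).

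The genes beside PLEKHA7 on chromosome 11 were also read. Among the 5 measured genes on each side, 0 were called by limma, beside 0.319% of all genes higher and 0.420% lower. In each direction 1 passed before adjustment (p under 0.05), beside 9.11% higher and 7.67% lower of all genes. Counts this small do not set these neighbours apart from all genes. The median change was 0.06. NUCB2, 3 genes away, gave 0.34 (SE 0.10, adjusted p = 0.180). C11orf58, the gene next to PLEKHA7 on the other side, gave −0.34 (SE 0.14, adjusted p = 0.322).

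None of the 18 probe sets of CDH1, CDH2, CDH3, CDH11, CTNNA1, CTNNB1 and JUP passed in limma in either direction (adjusted p from 0.310 to 0.981). Over all probe sets 0.558% were called. Before adjustment (p under 0.05) 0 were higher and 1 lower, a CTNNB1 probe set, beside 7.25% and 6.79% of all probe sets. The groups were apart on 1 of the 18, while 21.0% of all probe sets had groups that did not overlap. Of the 18 changes 6 were above and 12 below 0, with a median of −0.07 (−0.01 over all probe sets). Including the 4 joint probe sets of CTNND1 and TMX2-CTNND1, 0 of 22 were called and the groups were apart on 2. None of the 22 had knockdown clones that all lay above the control clones, as both PLEKHA7 probe sets did and as 9.85% of all probe sets did.

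**Figure D2:**
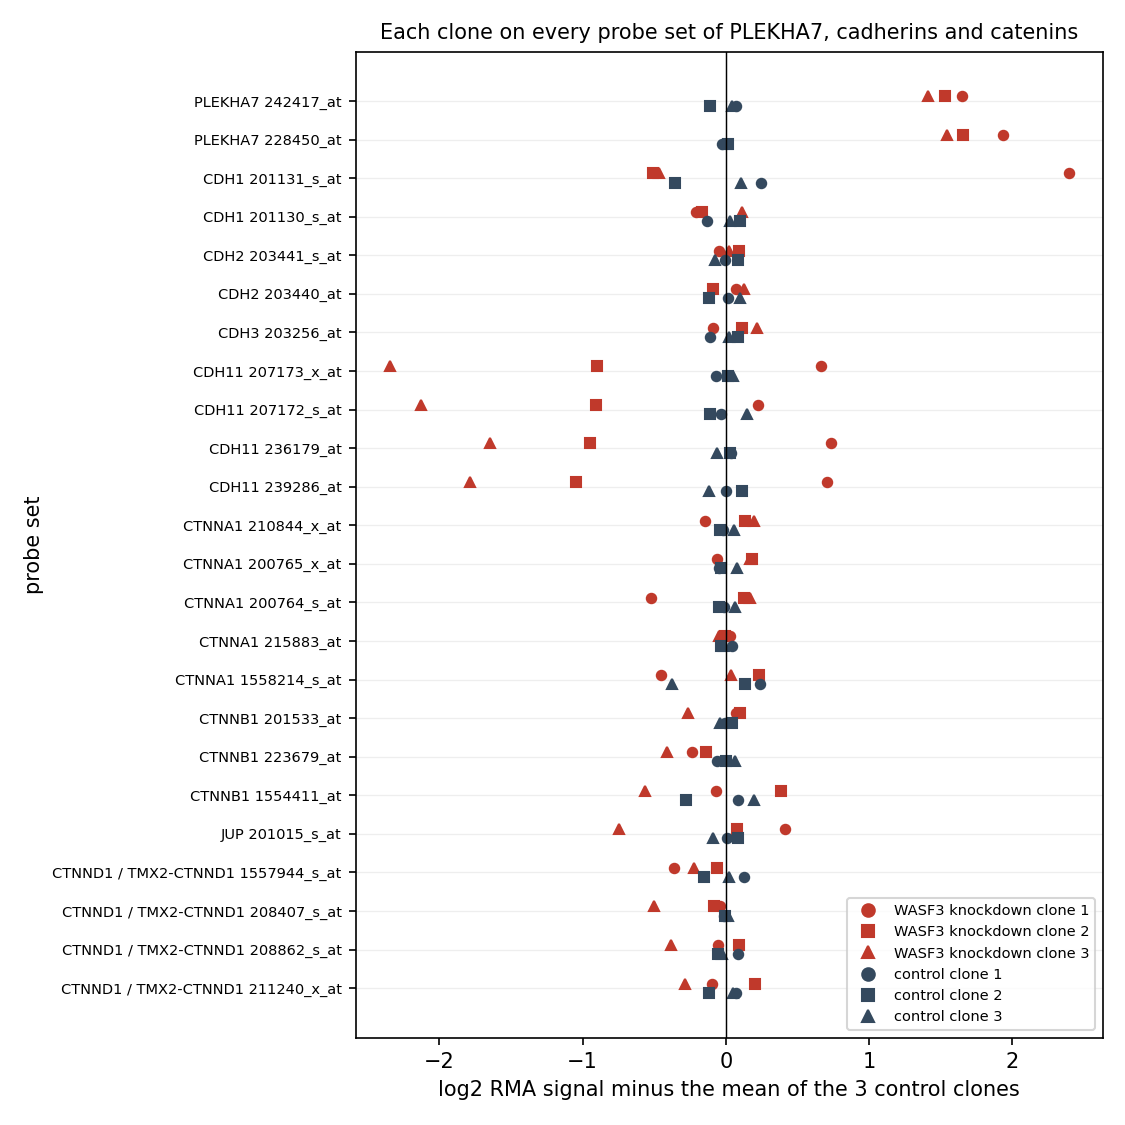
Each point is 1 clone on 1 probe set, plotted as its log2 RMA signal minus the mean of the 3 control clones (horizontal axis), with control clones dark and knockdown clones red. All red points of PLEKHA7 lie to the right of all dark points, those of CDH11 lie on both sides of them, and most other rows overlap.

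CDH11 (OB-cadherin, a cadherin of mesenchymal cells) was above the leukocyte range in all clones on its brightest probe set (207173_x_at). The 3 knockdown clones went different ways. On this probe set CDH11 read 11.14, 9.58 and 8.14 in knockdown clones 1, 2 and 3, against 10.41, 10.50 and 10.53 in the control clones. Knockdown clone 1 thus lay above every control clone, and clones 2 and 3 lay below. As a share of the mean control signal these were 158%, 53.7% and 19.7%. The same order was seen on each of the 4 CDH11 probe sets. On 207172_s_at the knockdown clones read 8.74, 7.60 and 6.38 and the control clones 8.40 to 8.66. On 236179_at they read 9.04, 7.36 and 6.66, with control clones at 8.24 to 8.34. On 239286_at they were 7.54, 5.79 and 5.05 against 6.72 to 6.95, and clone 3 lay in the leukocyte range (up to 5.74). The probe sets come from the same arrays, so they are repeat readings of 6 clones and not further replicates.

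The mean of CDH11 differed by −0.86 (SE 0.64, 95% interval −2.35 to 0.63, adjusted p = 0.616) on the brightest probe set and by −0.94 (SE 0.51), −0.62 (SE 0.52) and −0.71 (SE 0.55) on the others. None passed in limma. Control clones were close together, with an SD of 0.06 on the brightest probe set, and knockdown clones had an SD of 1.504. Of all probe sets 0.126% had a larger SD among the knockdown clones. Knockdown clone 1 has the largest 3′ minus 5′ difference of the GAPDH and ACTB control probe sets (2.11). Without this clone, 2 of the 4 CDH11 probe sets passed, while calls over all probe sets rose from 0.558% to 2.68%. These were 236179_at at −1.29 (adjusted p = 0.0325) and 239286_at at −1.41 (adjusted p = 0.0316), while the other two gave −1.62 (adjusted p = 0.0843) and −1.52 (adjusted p = 0.0703). Without clone 3 the changes of CDH11 were −0.11 to −0.34 and 0 probe sets passed. The part of RNA quality in the high value of clone 1 was not tested.

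CDH1 (E-cadherin, the classical cadherin of epithelial cells) had 2 probe sets that disagreed. On 201131_s_at knockdown clone 1 read 7.33, clones 2 and 3 read 4.44 and 4.47, and the control clones read 5.19, 4.59 and 5.05. Clone 1 was the single high array. On 201130_s_at the same knockdown clones read 3.79, 3.83 and 4.11 and the control clones 3.87 to 4.10, so clone 1 was not high there. The change was 0.47 (SE 0.72, adjusted p = 0.829) on the first and −0.09 (SE 0.12, adjusted p = 0.809) on the second. Without knockdown clone 1 the first gave −0.49 (SE 0.18, adjusted p = 0.228). Outside clone 1 on the first probe set, each CDH1 value lies in the leukocyte range (3.23 to 5.74) and is not shown to be above background. The changes above are therefore differences in signal, from which no fold or order of CDH1 level is read.

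CDH2 (N-cadherin, the cadherin of neural and many mesenchymal cells) lay in the same range on 1 probe set and partly below it on the other. It read 4.04 to 4.18 in knockdown and 4.01 to 4.17 in control clones on 203441_s_at, and 3.10 to 3.32 against 3.08 to 3.29 on 203440_at. Changes were 0.02 (SE 0.09, adjusted p = 0.946) and 0.03 (SE 0.10, adjusted p = 0.922). CDH3 (P-cadherin, found in basal cells of the breast) read 4.27, 4.48 and 4.58 in knockdown clones and 4.25, 4.45 and 4.39 in the controls. The change was 0.08 (SE 0.11, adjusted p = 0.807). For neither gene did these arrays show a signal above the leukocyte range. CDH1 and CDH3 are neighbours on chromosome 16.

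CTNNA1 (alpha-catenin) had 5 probe sets, and the groups overlapped on each. The brightest (210844_x_at) read 12.18, 12.45 and 12.52 in knockdown and 12.31, 12.28 and 12.38 in control clones, so knockdown clone 1 was the lowest array and clones 2 and 3 the highest. The change was 0.06 (SE 0.11, 95% interval −0.20 to 0.32, adjusted p = 0.863). Over the 5 probe sets changes ran from −0.08 to 0.10. Clone 1 was also the lowest array on 200765_x_at, 200764_s_at and 1558214_s_at, where it read 69.7% of the control signal on the second of these.

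For CTNNB1 (beta-catenin, which also carries Wnt signals to the nucleus) the brightest probe set (201533_at) read 11.10, 11.12 and 10.76 in knockdown and 11.02, 11.07 and 10.98 in control clones. Its change was −0.03 (SE 0.12, 95% interval −0.31 to 0.24, adjusted p = 0.939). On 223679_at the groups were apart, at 7.47, 7.57 and 7.30 in knockdown and 7.64, 7.70 and 7.77 in control clones. That change was −0.26 (SE 0.10, unadjusted p = 0.0354, adjusted p = 0.310) and did not pass in limma. The third probe set (1554411_at) gave −0.08 (SE 0.24), with overlapping groups.

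JUP (plakoglobin, a relative of beta-catenin that serves both adherens junctions and desmosomes) was read by 1 probe set. It gave 8.78, 8.44 and 7.62 in knockdown clones 1, 2 and 3 and 8.37, 8.44 and 8.27 in control clones. Knockdown clone 1 was the highest array and clone 3 the lowest, at 133% and 59.7% of the control signal. The mean change was −0.08 (SE 0.27, 95% interval −0.70 to 0.54, adjusted p = 0.927). The knockdown SD of JUP was 0.60 and the control SD 0.09. It fell in the order of CDH11, with clone 1 above clone 2 and clone 2 above clone 3, as PLEKHA7 did.

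The upstream windows of these related catenins are shown because SNAI and ZEB repressors of CDH1 bind the E-box letters CAGGTG, or CACCTG on the other strand. RefSeq (GRCh38.p14) windows matched 4 of the 9 members (CDH2, CTNNA1, CTNNB1 and JUP). Each sequence is the 250 bases before an annotated start, 5′ to 3′ on the gene's strand, with E-box matches in capitals. The first is chr3:41199255-41199504 on the plus strand and the second chr17:41785977-41786226 on the minus strand.
CTNNB1: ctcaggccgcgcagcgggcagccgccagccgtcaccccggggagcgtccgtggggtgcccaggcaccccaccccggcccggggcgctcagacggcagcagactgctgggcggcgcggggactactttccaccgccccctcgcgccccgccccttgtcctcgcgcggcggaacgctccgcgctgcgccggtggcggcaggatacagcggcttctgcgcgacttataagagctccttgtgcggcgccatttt
JUP: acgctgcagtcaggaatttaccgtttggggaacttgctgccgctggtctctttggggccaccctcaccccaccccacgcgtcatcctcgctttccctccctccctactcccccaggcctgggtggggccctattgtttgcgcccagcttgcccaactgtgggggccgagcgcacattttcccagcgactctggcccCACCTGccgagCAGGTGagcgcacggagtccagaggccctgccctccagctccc
Of the 9 windows of these 4 members 1 holds a match, and it was printed for that reason. This JUP window holds both forms, starting 54 and 43 bases before the start, and the other JUP window and all CDH2 and CTNNA1 windows hold 0. The CTNNB1 window holds 0 matches and 34 CG pairs, against 13 in the JUP window. Of 35116 windows of this length 17.5% hold CAGGTG or CACCTG on either strand. A match describes the letters and does not show that a factor binds there.

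The 4 probe sets shared by CTNND1 (p120 catenin, the partner of PLEKHA7) and TMX2-CTNND1 were lower on average but did not pass, and they cannot be assigned to CTNND1 alone. Their changes were −0.22, −0.21, −0.11 and −0.06 (SE 0.12 to 0.14, limma adjusted p from 0.473 to 0.894). On the brightest (208407_s_at) the knockdown clones read 10.01, 9.97 and 9.55 and the control clones 10.04, 10.05 and 10.07. The groups were apart there, and clone 3 was the low array at 70.5% of the control signal.

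**Figure D3:**
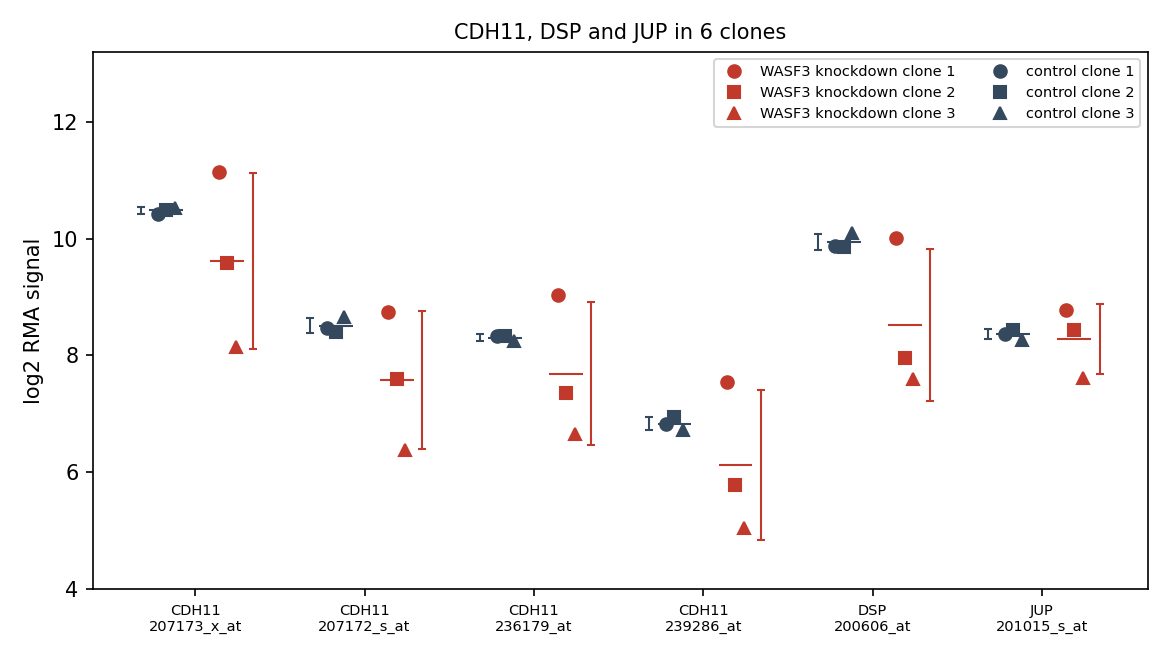
The plot shows the log2 RMA signal (vertical axis) of the 4 CDH11 probe sets, DSP and JUP in control (dark) and knockdown (red) clones, with group means as lines and SD as bars. In each column the knockdown clones run from clone 1 at the top to clone 3 at the bottom, and on 207173_x_at they span 8.14 to 11.14.

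Beyond the members, 10 lists of junction genes held 86 measured genes out of 89. By limma 0 rose and 1 fell, beside 0.319% and 0.420% of all genes, and before adjustment (p under 0.05) 7 were higher and 10 lower (9.11% and 7.67% of all genes). The median change over the lists together was −0.01, as over all genes. The gene that fell was PLEKHA8, a lipid-binding relative of PLEKHA7 that works at the Golgi and not at junctions. It read 7.10, 6.89 and 7.32 in knockdown clones and 8.03, 8.09 and 7.997 in the controls. The change was −0.93 (SE 0.12, adjusted p = 0.0368). All 6 of its probe sets were below 0 and 1 passed. Leaving out knockdown clone 2 ended the call (adjusted p = 0.0717), as did leaving out any control clone (adjusted p from 0.241 to 0.267). It also ended with the clone number as a block (adjusted p = 0.152), with an intensity trend (adjusted p = 0.0503) and after adjustment for the 3′/5′ index (−0.98, adjusted p = 0.211). Over all alternatives run the adjusted p was 0.00720 to 0.267. Of the other 6 PLEKHA genes measured, 0 were called, and PLEKHA5 read 0.27 (adjusted p = 0.250).

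Of 9 genes for partners of PLEKHA7, 0 passed in limma, with a median of −0.04. CGNL1 (paracingulin, a junction protein) read 4.98, 5.002 and 3.55 in knockdown and 5.40, 5.26 and 5.67 in control clones. The change was −0.93 (SE 0.37, adjusted p = 0.319), and each value lies in the leukocyte range. PDZD11, which binds PLEKHA7 directly, gave −0.11 (SE 0.13, adjusted p = 0.765). Afadin (AFDN), the actin adaptor of nectins, gave −0.09 (adjusted p = 0.777, named after its value was seen).

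Of the 4 nectins, immunoglobulin-like adhesion molecules of the same junction, 0 passed and the median was −0.09. NECTIN1 gave −0.30 (SE 0.08, adjusted p = 0.164) and NECTIN2 −0.22 (SE 0.09, adjusted p = 0.333), both with groups apart. On NECTIN2, 1 of 4 probe sets had groups apart, and on NECTIN1 3 of 4, beside 21.0% of all probe sets. Of these NECTIN1 probe sets only the brightest lay above the leukocyte range. The others with groups apart lay within it in every clone. Of 16 other cadherins 0 passed, with a median of −0.02, and 4 had a mean above 5. CDH5 (VE-cadherin, of endothelium) gave 0.25 (SE 0.08, adjusted p = 0.224) at a level of 2.97 to 3.29, below the leukocyte range in part. CDH22 gave −0.20 (SE 0.10, adjusted p = 0.446).

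In the list of other catenins and p120 relatives 0 of 7 passed, with a median of −0.05. PKP4 (p0071, a p120 relative of junctions) gave 0.41 (SE 0.09, adjusted p = 0.0945), reading 10.07, 10.21 and 10.18 in knockdown and 9.68 to 9.79 in control clones. All 5 of its probe sets had a change above 0 and the groups were apart on 2 of them, beside 21.0% of all probe sets. The dimmest of the 5 gave 0.04 and lay in the leukocyte range in every clone. The 5 probe sets are repeat readings of the same clones. CTNNAL1, an alpha-catenin-like gene, gave 0.26 (SE 0.10, adjusted p = 0.292). Among 9 actin linkers 0 passed and the median was 0.08. VASP, which speeds actin filament growth, gave −0.35 (SE 0.14, adjusted p = 0.322), and 0.033 after adjustment for the 3′/5′ index. ACTN1 (alpha-actinin, an actin crosslinker) gave 0.41 (SE 0.25, adjusted p = 0.527), with clone 1 at 11.62 below all control clones and clones 2 and 3 at 12.43 and 12.68 above them. Without clone 1 ACTN1 gave 0.72 and passed (adjusted p = 0.0316), in a fit that called 3.58% of all genes.

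Among 12 desmosome genes 0 passed and the median was −0.08. DSG2, a desmosomal cadherin, gave −0.41 (SE 0.12, adjusted p = 0.178). PKP2, a plaque protein, gave 0.44 (SE 0.13, adjusted p = 0.203) on the brighter of its 2 probe sets. The other gave −0.20 and lay in the leukocyte range in every clone. DSP (desmoplakin, the plaque protein that anchors keratin filaments), named after its values were seen, read 10.02, 7.96 and 7.59 in knockdown clones 1, 2 and 3 and 9.85 to 10.09 in control clones. Clone 1 was among the control clones and clones 2 and 3 were at 25.3% and 19.6% of the control signal. The change was −1.42 (SE 0.56, adjusted p = 0.317), and without clone 1 it was −2.17 and passed (adjusted p = 0.00521), again beside 3.58% of all genes. DSP and CDH11 had the same order of the knockdown clones, as both PLEKHA7 probe sets did. With 3 clones few orders are possible, and how often other genes share this order was not counted.

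For beta-catenin signalling, 0 of 5 destruction complex genes and 0 of 11 measured target genes passed, with medians of −0.07 and −0.07. BTRC, the ubiquitin ligase subunit that recognises phosphorylated beta-catenin, gave 0.46 (SE 0.08, adjusted p = 0.0676), and passed without knockdown clone 3 (adjusted p = 0.0374), where 6.19% of all genes were called. GSK3B, the kinase that marks beta-catenin, gave −0.34 (SE 0.13, adjusted p = 0.285). SP5 gave −0.26 (SE 0.13, adjusted p = 0.422), and LEF1, a nuclear partner of beta-catenin, 0.19 (SE 0.10, adjusted p = 0.440). Of the 6 repressors of CDH1 0 passed. SNAI2 read 6.36, 6.59 and 5.57 in knockdown and 6.97, 6.69 and 7.12 in control clones (−0.75, SE 0.26, adjusted p = 0.249), with groups apart. ZEB1 gave 0.18 (SE 0.13, adjusted p = 0.593).

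**Figure D4:**
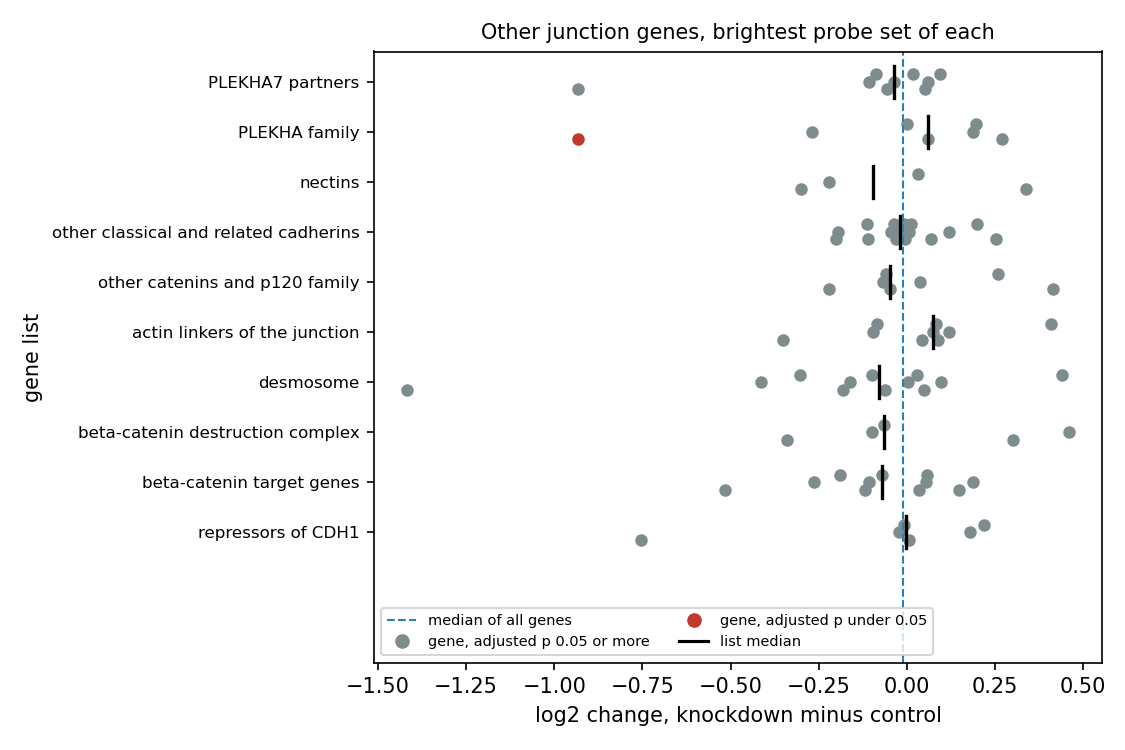
Each point is the log2 change (knockdown minus control, horizontal axis) of 1 gene on its brightest probe set, by gene list (rows), with list medians as black bars and the median of all genes (−0.01) dashed. PLEKHA8 at −0.93 is the red point (adjusted p under 0.05), and list medians run from −0.09 to 0.08.

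Of genes with a mean above 5, those most like PLEKHA7 over the 6 arrays were SMYD4, ORC3, CLPX, SURF6, RPS12 and SUPV3L1, by Pearson correlation with its brightest probe set (r from 0.994 to 0.998, n = 6). All points share the 2 groups, so the correlation mainly follows the difference between them, and no member was among these genes. Their changes were far smaller than that of PLEKHA7, from 0.07 (SURF6) to 0.63 (SUPV3L1). They were picked for following PLEKHA7, itself chosen by this contrast, so a difference between the groups was built into the choice. The limma call of 1 of the 6, SUPV3L1 (adjusted p = 0.0368), is therefore a description and no test. That call was lost without control clone 1, 2 or 3 (adjusted p from 0.241 to 0.274) and without knockdown clone 2 (adjusted p = 0.0762). It was lost as well with the clone number as a block (0.169), an intensity trend (0.0607) and adjustment for the 3′/5′ index (0.244), in a range of adjusted p from 0.0143 to 0.274 over all alternatives run. The members' own correlations with PLEKHA7 ran from −0.79 (CTNNB1, 223679_at) to 0.43 (CTNNA1, 200765_x_at), leaving out its other probe set (1.00).

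The mesenchymal-like markers VIM and CD44 were high, with VIM at 14.1 in knockdown and 14.3 in control clones and CD44 at 11.6 and 11.8. Of 6 luminal markers 4 also had a mean over all arrays above the leukocyte range, which goes against that label in part. They were KRT19 (11.4), ERBB2 (7.93), GATA3 (7.24) and, just above the range, ESR1 (5.81), whose knockdown mean (5.73) lay within it. PGR (3.31) lay within it and FOXA1 (3.18) below it. These levels are from brightest probe sets. Over all 21 probe sets of the luminal markers the median level was 3.96, against 3.75 over the 19 of the leukocyte markers. The summed signal of the 9 measured leukocyte markers (log2) was 7.84 to 7.99 in knockdown and 7.97 to 8.05 in control clones. Array medians ran from 5.13 to 5.17 and the number of arrays limits the precision of every value. The 3 arrays per group cannot give an exact two-sided permutation p below 0.1.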

How the data were processed

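RNA of 6 clones was hybridised to Affymetrix arrays. Per the submitters' processing notes, the deposited values are log2 signals from RMA in Affymetrix Expression Console 1.0. No source used here names a genome build. RMA as usually run equalises probe intensities between arrays before summarising them, which can hide global shifts.

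Here limma 3.58.1 (R 4.3.3) was fitted with group as the only term, two-sided, with Benjamini-Hochberg adjustment over 54613 probe sets after 62 control probe sets were left out. Calls are adjusted p under 0.05. The brightest probe set on average stood for a gene. The script was tested on simulated data. Symbols came from the platform annotation, updated by gene identifier (41037 of 41091 probe sets with 1 symbol) from a RefSeq table of GRCh38.p14, which also ordered neighbours. Of the others 1801 carried several symbols and 11721 none.

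Members and lists were chosen with earlier results of these data known. The text names all members, WASF3, up to 4 called genes of each list or the 2 with the smallest p, the neighbours of PLEKHA7 and the 6 genes most like it. Alternatives left out each clone, added the clone number as a block or the 3′/5′ index, and changed the variance prior, scaling, filter and probe sets. The table held 0 columns of other samples.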

Additional observations from a re-analysis of the deposited data

How the results depend on the processing

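The change of PLEKHA7 kept its direction in all alternatives run, from 1.47 to 1.62, and its values without single clones were 1.47 to 1.59. PLEKHA7 was chosen for this increase and its groups do not overlap, so leaving out a clone could not turn its sign. The count of 0 called cadherin and catenin probe sets was kept in every alternative except without knockdown clone 1 (range 0 to 2), where calls over all probe sets rose from 305 to 1465. The called genes of the lists went from 0 to 3 without single clones, and to 0 with the replicate block, an intensity trend or adjustment for the 3′/5′ index. All genes called (146) went to 2 to 1225 without single clones, 3 with the replicate block, 63 with an intensity trend, 88 without probe sets matching several transcripts, 1 with the index and 238 with the mean of a gene's probe sets. All probe sets called (305) went to 3 to 2493, and to 6, 115, 147 and 1 in the first 4 of those other settings. The clone numbers are shared by both groups, but same-numbered clones did not deviate together (correlations −0.12, −0.13 and −0.06), so the replicate block has no basis in the design.

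Signs of small changes turned without single clones, where the values ran from −0.49 to 0.96 for CDH1 (201131_s_at), −0.017 to 0.062 for CDH2 (203441_s_at) and −0.024 to 0.097 for CDH2 (203440_at). For CTNNA1 they ran from −0.20 to 0.15 (200764_s_at), −0.25 to 0.13 (1558214_s_at), −0.0079 to 0.16 (210844_x_at) and −0.025 to 0.016 (215883_at). For CTNNB1 they ran from −0.096 to 0.086 (201533_at) and −0.32 to 0.16 (1554411_at), and for JUP from −0.33 to 0.25. Adjusted for the index, CDH1 (201131_s_at) gave −1.52, CTNNA1 0.46 (200764_s_at) and 0.41 (1558214_s_at), CTNNB1 0.11 (1554411_at) and VASP 0.033, and with equal array medians CTNNA1 (215883_at) gave 0.014. The cause of these turns was not tested. The index lies higher in every knockdown clone, so it and the group are hard to separate.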
